A study of Mus musculus with 16 samples.

Results

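Supplemented B16F10 supernatant was compared with fresh medium without methionine, a pair of culture conditions in which both the medium and the methionine supply differ. All cells were mouse CD8+ T cells of the C57BL/6 strain, the cytotoxic arm of the T cell response, and all had received 2 days of stimulation through CD3 and CD28 before they spent 36 h in the test medium. The supplemented supernatant (Sup+) is medium taken from B16F10 cells, a mouse melanoma line, with methionine added. The methionine-free fresh medium (fresh-) is unused medium that lacks this amino acid. The comparison holds 8 of the 16 libraries of the study, the 4 libraries of each of these 2 conditions, chosen by their labels and not by any measured value. The other 8 libraries, 4 of B16F10 supernatant with nothing added and 4 of complete fresh medium with methionine, are given beside some results. Whether replicate libraries stem from separate animals or cultures is not stated, so p-values below measure the spread between libraries, which may be technical. How much methionine the supernatant still held is not stated in the labels.

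Methionine is an essential amino acid that T cells import from outside. Inside the cell it enters proteins, and the enzyme encoded by Mat2a uses ATP to turn it into S-adenosylmethionine, the methyl donor for DNA, RNA and histones. A shortage of amino acids is sensed by the kinase GCN2, which favours translation of the transcription factor ATF4 and so expression of genes for amino acid synthesis and import. Tumour cells consume amino acids from their surroundings and release metabolites such as lactate, so medium taken from them can differ from fresh medium in many substances.

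The values below are depth-normalized reads, which are reads per gene divided by 1 size factor per library. They are not corrected for gene length, so they compare a gene between conditions and not genes with each other. Recovered reads ran from 35.2 to 41.8 M per library in supplemented supernatant and from 32.4 to 36.5 M in methionine-free fresh medium. On the first principal component of the 8 libraries, which held 90.8% of the variance, the 4 libraries of supplemented supernatant lay between 55.1 and 59.0 and the 4 of methionine-free fresh medium between -57.8 and -56.3. On the second, which held 1.91%, replicate 1 of supplemented supernatant stood apart at -17.5, with the other 7 libraries between -2.62 and 11.5. All 7 tested CD8 T cell marker genes were higher in supplemented supernatant, with summed levels of 161944 to 173415 reads per library there, against 103708 to 105835 in methionine-free fresh medium. Cd8a itself had 34719 ± 749 reads in Sup+ and 30626 ± 350.4 in fresh- (SD, n = 4 each). Because these are bulk samples, fewer cells of a type and less RNA per cell cannot be told apart.

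Most of the measured transcripts differed between the 2 conditions. Of 12452 genes that averaged 10 reads or more over the 8 libraries, 10563 (84.8%) passed an adjusted p of 0.05 in limma, 5265 (42.3%) higher and 5298 (42.5%) lower in supplemented supernatant. The sizes were mostly moderate, with a median absolute log2 fold change of 0.50. At least 2-fold changes were called in 1427 genes (11.5%) on the higher side and 1447 (11.6%) on the lower side. At least 16-fold changes were called in 16 genes on the higher side and 52 on the lower side. The FPKM table called fewer, 6214 of 11617 genes, so the counts of list members below are smaller there. In 9907 genes (79.6%) the 4 libraries of one condition lay wholly above or below the 4 of the other, so an absence of overlap is the rule in this comparison and distinguishes few genes. The direction of small changes depends on scaling, because dividing by total reads instead of size factors shifts the median of all genes by -0.15 on the log2 scale. In 1361 genes (10.9%) the 4 libraries of supplemented supernatant also exceeded all 12 libraries of the other 3 media, and in 1059 (8.5%) they lay below all 12. Near the filter on low values, Zfp618 with a mean of 10.003 reads was just inside and Snora75 with 9.98 reads just outside.

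The largest increases included genes of sulfur amino acid, lipid and sugar metabolism beside genes better known from the nervous system. Cth encodes cystathionine gamma-lyase, which makes cysteine from cystathionine at the end of the transsulfuration pathway (chr3:157894248-157925077 in GRCm38, the build of all positions here). It had 1549, 1711, 1709 and 1579 reads in supplemented supernatant, against 38.5, 19.8, 30.9 and 37.7 in methionine-free fresh medium (log2 fold change 5.69, SE 0.13, adjusted p 1.37e-23). All 4 supplemented libraries exceeded every library of the other 3 media, of which complete fresh medium was next with a mean of 125 ± 9.26 reads (SD, n = 4). Grin1, a subunit of the NMDA glutamate receptor (chr2:25291181-25319187), had 269, 271, 211 and 200.0 reads in supplemented supernatant, against 1.79, 1.98, 4.55 and 1.02 in methionine-free fresh medium (log2 fold change 6.25, SE 0.26, adjusted p 5.94e-18). Its level in complete fresh medium was higher still, at 480.4 ± 29.9 reads (SD, n = 4). Because the fresh- libraries hold only a few reads, the fold of this gene depends on the pseudocount of 1. Bzrap1, a synaptic scaffold gene, had 3416, 3791, 3127 and 3118 reads in supplemented supernatant, against 75.2, 82.1, 78.3 and 83.6 in methionine-free fresh medium (log2 fold change 5.38, SE 0.066, adjusted p 4.09e-29), well above the counting floor in both conditions. Cspg5, a brain proteoglycan gene (chr9:110243783-110262576), averaged 266 ± 23.2 reads in Sup+ and 8.09 ± 1.29 in fresh- (SD, n = 4 each; log2 fold change 4.88). Aldoc, Vldlr and Fads2, the other leading genes, belong to lists described below.

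The largest decreases were of genes that were almost silent in supplemented supernatant. Ttn, which encodes the giant muscle protein titin (chr2:76703980-76982547), had 1.92, 4.11, 1.96 and 0.866 reads in supplemented supernatant, against 373, 344, 370.3 and 323 in methionine-free fresh medium (log2 fold change -6.87, SE 0.24, adjusted p 1.15e-19). Plaur, the receptor for urokinase (chr7:24462484-24475968), had 0, 6.17, 12.7 and 7.79 reads in Sup+, against 351, 326, 387 and 346 in fresh- (log2 fold change -6.02, SE 0.44, adjusted p 9.66e-13). The library at 0 makes this fold sensitive to the pseudocount. Hecw2, a ubiquitin ligase gene (chr1:53806876-54195168), had 6.73, 12.3, 20.5 and 9.52 reads in Sup+, against 770.0, 834, 783 and 709 in fresh- (log2 fold change -5.97, SE 0.19, adjusted p 1.47e-20). Cxcl10, a chemokine that draws activated T cells and is induced by interferon (chr5:92346638-92348889), had 3.85, 2.06, 3.91 and 8.66 reads in Sup+, against 231, 259, 254 and 274 in fresh- (log2 fold change -5.63, SE 0.25, adjusted p 1.65e-17). Zfp750, a zinc finger factor known from epidermis, averaged 18.7 ± 7.14 reads in supplemented supernatant and 869 ± 39.8 in methionine-free fresh medium (SD, n = 4 each). Tmprss6 (log2 fold change -5.12), a serine protease known from liver iron control, Pdzk1 (-5.10), a scaffold of membrane transporters, and Bfsp2 (-5.02), a lens filament gene, completed the 8. In complete fresh medium these 8 genes averaged between 1.17 and 29.1 reads, and in unsupplemented supernatant between 187 and 1078, so both media with methionine were low.

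**Figure D1:**
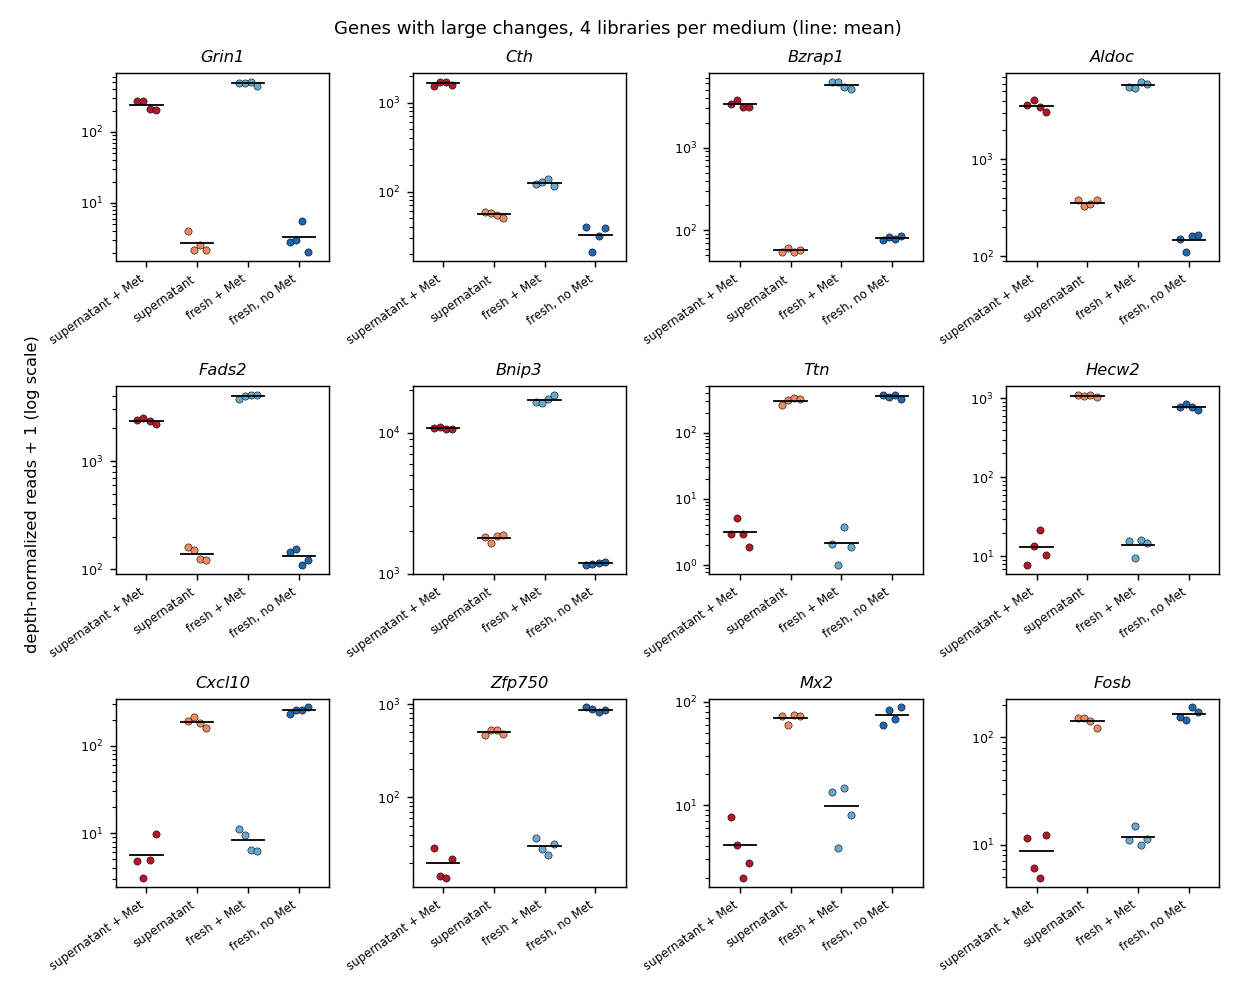
Depth-normalized reads per library (log axis, value plus 1) of 12 genes with large changes, with 4 libraries per medium as points and the mean as a line. Grin1, Bzrap1, Aldoc, Fads2 and Bnip3 were high in both media supplied with methionine. Ttn, Hecw2, Cxcl10, Zfp750, Mx2 and Fosb were high in both media with none added. Cth averaged 1637 reads in supplemented supernatant and 125 or fewer in each of the other media.

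Genes for making sterols rose together. These genes share the transcription factor SREBP2, which is released from the endoplasmic reticulum when sterols run low, and they supply membranes of dividing T cells with cholesterol. Of 24 tested genes of sterol synthesis and uptake, 22 were higher, 1 was lower and 1, Ebp, was not called, with a median log2 fold change of 1.71 beside -0.0052 over all genes tested. Fdps, farnesyl diphosphate synthase (chr3:89093588-89101959), had 8359, 9397, 8720.0 and 8077 reads in supplemented supernatant, against 821, 757, 781 and 819 in methionine-free fresh medium (log2 fold change 3.44, SE 0.042, adjusted p 3.28e-29). Hmgcs1, which makes the precursor of mevalonate, had 8853, 10164, 8403 and 8319 reads in Sup+, against 1297, 1256, 1287 and 1369 in fresh- (log2 fold change 2.77, SE 0.046, adjusted p 1.16e-26). Mvd, which decarboxylates mevalonate diphosphate, averaged 2278 ± 168 reads in supplemented supernatant and 356 ± 15.5 in methionine-free fresh medium (SD, n = 4 each; log2 fold change 2.67). Tm7sf2, a sterol reductase, averaged 478 ± 33.8 reads in Sup+ and 82.5 ± 7.49 in fresh- (SD, n = 4 each; log2 fold change 2.52). Most of the rise was shared by the 2 media with methionine. The median of the list was 1.89 for the methionine part of the change and -0.20 for the medium part, 2 quantities defined below.

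The promoters of the sterol genes were read for the sequences such factors bind. The 250 bases before the start of Hmgcs1, Mvd and Tm7sf2 are shown because these were the called sterol genes with the largest changes with an entry in the RefSeq promoter table used (GRCm38.p6). They are written from 5′ to 3′ on the strand of the gene. Capitals mark the core of the sterol regulatory element, CACCCCA.
Hmgcs1 (chr13:119690101-119690350, plus strand): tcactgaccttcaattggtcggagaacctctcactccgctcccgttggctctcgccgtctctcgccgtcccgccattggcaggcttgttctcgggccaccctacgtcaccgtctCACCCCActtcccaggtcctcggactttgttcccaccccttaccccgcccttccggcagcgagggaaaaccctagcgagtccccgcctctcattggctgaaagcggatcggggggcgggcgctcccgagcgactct
Mvd (chr8:122443423-122443672, minus strand): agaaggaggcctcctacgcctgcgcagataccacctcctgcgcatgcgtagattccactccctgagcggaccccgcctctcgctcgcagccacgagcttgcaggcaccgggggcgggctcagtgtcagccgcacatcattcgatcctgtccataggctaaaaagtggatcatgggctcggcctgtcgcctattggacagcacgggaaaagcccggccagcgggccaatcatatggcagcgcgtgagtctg
Tm7sf2 (chr19:6067851-6068100, minus strand): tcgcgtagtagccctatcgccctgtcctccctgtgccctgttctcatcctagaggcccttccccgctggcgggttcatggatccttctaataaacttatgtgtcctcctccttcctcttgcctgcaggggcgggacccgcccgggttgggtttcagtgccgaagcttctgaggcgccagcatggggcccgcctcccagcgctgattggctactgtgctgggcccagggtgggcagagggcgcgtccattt
Hmgcs1 held 1 copy of the core, on the strand of the gene and 136 bases before the start. Mvd and Tm7sf2 held neither this core nor the E-box CACGTG, read on both strands, which says only that these letters are not in these windows. The core was present in 3 of the 16 tested sterol genes with a promoter in the table (18.8%), against 6.91% of the 8896 tested genes with a promoter and 6.62% of all 27025. The E-box was present in 3 of the 16 (18.8%) as well, against 8.5% of tested genes and 6.05% of all. A match is a description of the sequence and not a measured site.

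Fatty acid genes moved the same way. Of 18 tested genes of fatty acid synthesis and desaturation, 17 were higher, 0 were lower and 1, Elovl1, was not called (median log2 fold change 1.09). Fads2, the delta-6 desaturase that starts the making of long polyunsaturated fatty acids (chr19:10062765-10101746), had 2395, 2485, 2349 and 2218 reads in supplemented supernatant, against 144, 152, 108 and 121 in methionine-free fresh medium (log2 fold change 4.17, SE 0.078, adjusted p 1.71e-25). Complete fresh medium was above both, with a mean of 3985 ± 155 reads (SD, n = 4). Acsl3, which activates fatty acids with coenzyme A, averaged 1157 ± 26.5 reads in Sup+ and 163 ± 11.7 in fresh- (SD, n = 4 each; log2 fold change 2.82). Vldlr, a lipoprotein receptor (chr19:27216484-27254231), is not in this list and is counted in the ATF4 list below. It averaged 1161 ± 43.9 reads in supplemented supernatant and 53.9 ± 8.496 in methionine-free fresh medium (log2 fold change 4.42, adjusted p 2.92e-24).

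Sugar metabolism and the response to low oxygen were higher as well. Glycolysis turns glucose into pyruvate and lactate and is strongly used by activated T cells, and many of its genes are targets of the hypoxia factor HIF-1. Of 21 tested glycolysis genes, 20 were higher and 0 lower, with a median log2 fold change of 1.33, and Hk2, a hexokinase, was not called (0.0097). Aldoc, an aldolase (chr11:78322968-78327781), had 3584, 4083, 3470.0 and 3037 reads in supplemented supernatant, against 148, 109, 161 and 166 in methionine-free fresh medium (log2 fold change 4.60, SE 0.093, adjusted p 7.94e-25). Pgk1, phosphoglycerate kinase (chrX:106187100-106203699), had 98308, 108681, 97845 and 93654 reads in Sup+, against 13563, 12548, 13293 and 14272 in fresh- (log2 fold change 2.89, SE 0.040, adjusted p 2.60e-28). The groups were far from overlapping.

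The hypoxia list was more mixed. Of its 21 tested genes, 16 were higher, 4 were lower and 1, Rora, was not called (median 1.36). Bnip3, a mitophagy receptor (chr7:138890836-138909519), had 10781, 10978, 10671 and 10544 reads in supplemented supernatant, against 1146, 1169.7, 1194 and 1209 in methionine-free fresh medium (log2 fold change 3.19, SE 0.032, adjusted p 1.37e-30). Ero1l, an oxidase that forms disulfide bonds in the endoplasmic reticulum, averaged 44029 ± 1292 reads in Sup+ and 7572 ± 174 in fresh- (SD, n = 4 each; log2 fold change 2.54). The 4 lower genes were Hif1a (-0.22), which encodes the oxygen-regulated subunit of HIF-1, Mxi1 (-0.32), Ddit4 (-0.18) and Plod2. Plod2, a collagen-modifying hydroxylase, had 1635, 1538, 1407 and 1508 reads in supplemented supernatant, against 3065, 2955, 2809.8 and 3118 in fresh- (log2 fold change -0.97, SE 0.043, adjusted p 1.75e-17), and its mean in complete fresh medium, 3471 reads, was above both.

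Mitochondrial genes rose by less. Of 20 tested genes of the tricarboxylic acid cycle, 17 were higher, 2 were lower and 1 was not called (median 0.75). Sdhb, the iron-sulfur subunit of succinate dehydrogenase, averaged 5522 ± 314 reads in supplemented supernatant and 1577 ± 54.5 in methionine-free fresh medium (SD, n = 4 each; log2 fold change 1.81), and Fh1, fumarate hydratase, averaged 3554 ± 26.1 in Sup+ and 1095 ± 18.1 in fresh- (1.70). The 2 lower genes, Ogdh (-0.29) and Dlst (-0.41), both encode subunits of the 2-oxoglutarate dehydrogenase complex. Of 44 tested nuclear genes of the respiratory chain and ATP synthase, 39 were higher, 2 were lower and 3 were not called (median 0.44). Atp5c1, the gamma subunit of ATP synthase, had the largest increase of the list at 1.65, and Ndufv2, a subunit of complex I, followed among those called at 1.27. Cycs, cytochrome c, was lower (log2 fold change -0.31, adjusted p 5.17e-09), and in the FPKM table had a log2 fold change of -0.47 without a call (adjusted p 0.103). Cox8a (-0.096), a subunit of cytochrome oxidase, was the other lower gene.

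**Figure D2:**
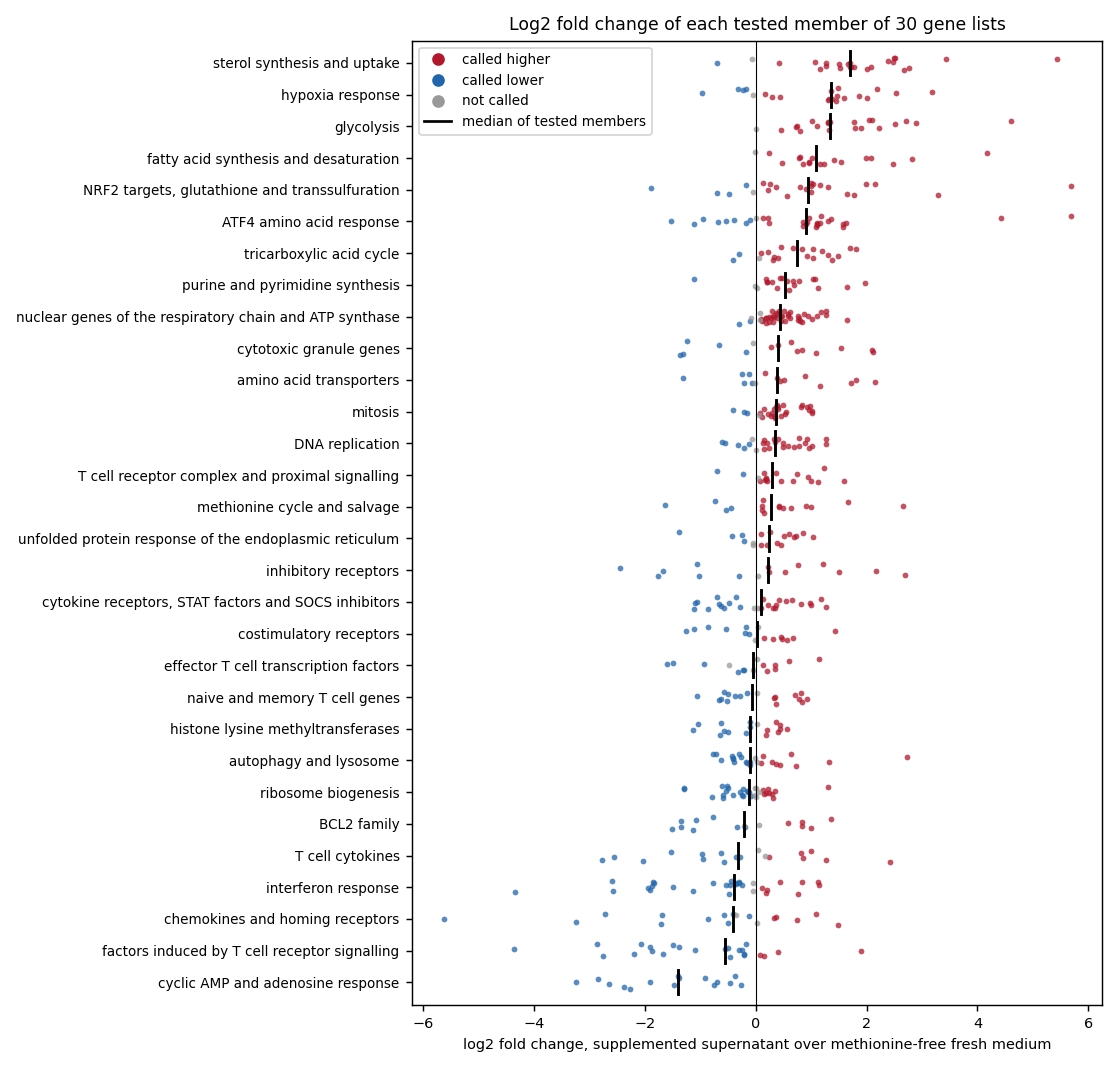
Log2 fold change of supplemented supernatant over methionine-free fresh medium for each tested member of 30 gene lists, as points coloured by call, with the list median as a bar. The medians run from 1.71 for sterol genes at the top to -1.39 for cyclic AMP and adenosine response genes at the bottom, and most lists in between hold members on both sides of 0.

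The enzymes that handle methionine itself split in direction. Of 16 tested genes of the methionine cycle and salvage, 12 were higher and 4 were lower (median 0.28). Mat2a, the S-adenosylmethionine synthetase described above (chr6:72432799-72439558), had 11235, 11092, 11488 and 11936 reads in supplemented supernatant, against 34711, 36002, 35866 and 35085 in methionine-free fresh medium (log2 fold change -1.63, SE 0.030, adjusted p 7.81e-26). The supplemented libraries were lower without overlap, yet above complete fresh medium, where Mat2a averaged 6636 ± 61.7 reads (SD, n = 4). Ahcy, which clears the S-adenosylhomocysteine left after methylation (chr2:155059310-155074497), had 21834, 22184, 22715 and 21172 reads in Sup+, against 3507, 3439.8, 3439 and 3522 in fresh- (log2 fold change 2.66, SE 0.029, adjusted p 5.92e-30). Apip, an enzyme of methionine salvage, averaged 1009.9 ± 41.04 reads in Sup+ and 319.8 ± 42.4 in fresh- (SD, n = 4 each; log2 fold change 1.66). The 3 lower genes beside Mat2a were Mtrr (-0.53), which reactivates methionine synthase, Srm (-0.45), spermidine synthase, and Odc1 (-0.73), the first enzyme of polyamine synthesis. With total-read scaling 8 members were higher and 4 lower.

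Histone methyltransferases, which use the methyl donor, showed no common direction. Of 17 tested, 7 were higher and 9 lower, beside 42.3% higher and 42.5% lower among all genes tested. Setd2, which methylates lysine 36 of histone H3, had 5129, 4970.4, 4949.6 and 5474 reads in supplemented supernatant, against 11594, 11361, 11168 and 10904 in methionine-free fresh medium (log2 fold change -1.13, adjusted p 1.79e-21). Suv420h1, an H4K20 methyltransferase, averaged 1740.1 ± 100.1 reads in Sup+ and 3571 ± 91.2 in fresh- (SD, n = 4 each; log2 fold change -1.04). Ezh2, the catalytic subunit of the Polycomb complex PRC2, was higher, at 8717 ± 409 reads in Sup+ and 5904 ± 115 in fresh- (log2 fold change 0.56). Dot1l, the H3K79 methyltransferase, had 4439.7, 4268, 4144 and 4409 reads in supplemented supernatant, against 4282, 4256, 4273 and 4161 in fresh-, and was not called (log2 fold change 0.024, adjusted p 0.482; 95% interval of the log2 difference from -0.041 to 0.089). With total-read scaling its value was -0.12 with an adjusted p of 0.0012, a difference below the shift of all genes under that scaling, and in the FPKM table with a replicate block it was called higher (0.22, adjusted p 0.0257).

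Amino acid transporter genes were more often higher than lower. Of 15 tested, 9 were higher and 5 lower (median 0.38), beside 42.3% higher and 42.5% lower among all genes tested. With total-read scaling 8 were higher and 6 lower. With TMM scaling 9 were higher and 3 lower, with FPKM 9 and 1, and with quantile normalization the median was 0.18. Slc43a2, an importer of methionine and other large neutral amino acids (chr11:75531694-75577575), had 2309.8, 2249, 2293 and 2268 reads in supplemented supernatant, against 1016, 1057, 994 and 1035 in methionine-free fresh medium (log2 fold change 1.15, SE 0.038, adjusted p 3.36e-20). Slc7a11, which exchanges glutamate for cystine (chr3:49892526-50443614), had 591, 698, 681 and 691 reads in Sup+, against 148, 159, 146 and 143 in fresh- (log2 fold change 2.15, SE 0.076, adjusted p 1.07e-19). Slc6a9, a glycine transporter, had 3177, 3047, 3209.7 and 2949.7 reads in Sup+, against 832, 889, 904 and 914 in fresh- (log2 fold change 1.81, SE 0.041, adjusted p 1.01e-23). For Slc7a11 and Slc6a9 complete fresh medium was the lowest of the 4 media, at 87.5 ± 14.6 and 492 ± 63.1 reads (SD, n = 4 each), so supplemented supernatant stood above both fresh media. The 5 lower genes were Slc7a7 (-1.30), Slc38a9 (-0.25), Slc43a1 (-0.21), Slc38a2 (-0.12) and Slc7a6 (-0.070).

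Genes controlled by ATF4 were mostly higher. Of 30 tested genes, 21 were higher, 8 lower and 1 not called (median 0.91). With FPKM 19 were called higher and 2 lower, so most of the lower calls are of the depth-normalized table. Its enzymes of amino acid and folate metabolism and its tRNA synthetases were all on the higher side. Asns, asparagine synthetase (chr6:7675169-7693254), had 17050.0, 16985, 17856 and 16911 reads in supplemented supernatant, against 8070.4, 8069, 7849 and 8125 in methionine-free fresh medium (log2 fold change 1.10, SE 0.029, adjusted p 1.60e-22). Phgdh, Psat1 and Psph, the enzymes of serine synthesis, had log2 fold changes of 1.10, 0.97 and 1.08. The tRNA synthetase genes Gars (1.19), Wars (0.92), Sars (0.86) and Nars (0.85) were higher too. Atf4 itself averaged 24407 ± 650.0 reads in Sup+ and 22246 ± 585 in fresh- (SD, n = 4 each; log2 fold change 0.13, adjusted p 1.97e-04), an increase smaller than the shift of all genes under total-read scaling.

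Several transcription regulators of the same list were lower. Atf3, a stress-induced factor (chr1:191170296-191218039), had 1349, 1251, 1287 and 1283 reads in supplemented supernatant, against 3602, 3502, 3706 and 4076 in methionine-free fresh medium (log2 fold change -1.52, SE 0.042, adjusted p 5.94e-22). The related factors Cebpg (-1.12), Cebpb (-0.95) and Atf5 (-0.67) were lower as well. Ddit3, which encodes the stress factor CHOP (chr10:127290774-127296288), had 2917, 2995, 2825 and 2699 reads in Sup+, against 3613, 3796, 3706 and 3819 in fresh- (log2 fold change -0.39, SE 0.035, adjusted p 1.16e-10), and this call was lost in the FPKM table (log2 fold change -0.20, adjusted p 0.459). The other 3 lower genes were Sesn2 (-0.53), an inhibitor of mTORC1, Ddit4 (-0.18), another one, and Ppp1r15a (-0.11), a phosphatase subunit that ends the stress response. Ddit4 and Ppp1r15a fell by about as much as, or less than, the shift of all genes under total-read scaling.

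Trib3, a pseudokinase that restrains ATF4, was the same list's gene without a call. It had 11951, 12407, 13134 and 11672 reads in supplemented supernatant, against 11883, 12137, 12649.5 and 12179 in methionine-free fresh medium, with overlapping groups (log2 fold change 0.0082, adjusted p 0.821; 95% interval of the log2 difference from -0.060 to 0.077). Unsupplemented supernatant was close to both, with a mean of 12489.9 ± 483 reads, and complete fresh medium was far below these 3 media, with 2189 ± 135 (SD, n = 4 each). Its sign turned with total-read scaling (-0.14, adjusted p 0.000341) and with quantile normalization (-0.18, adjusted p 1.75e-05), whereas in the FPKM table with a replicate block it was called higher (0.22, adjusted p 0.00952).

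**Figure D3:**
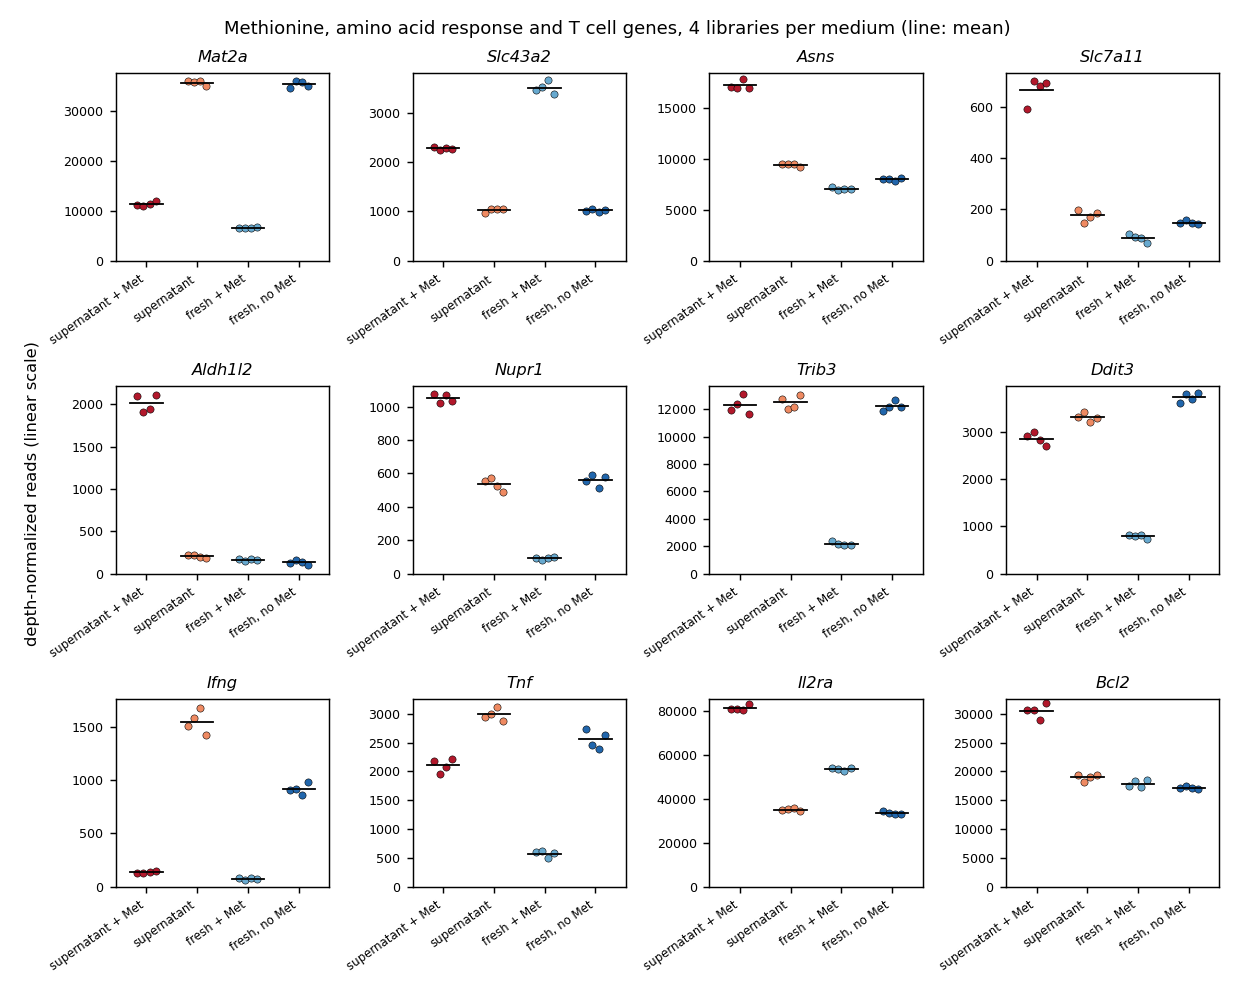
Depth-normalized reads per library (linear axes from 0) of 12 genes of methionine handling, the amino acid response and T cell function, with 4 libraries per medium as points and the mean as a line. Asns, Slc7a11, Aldh1l2, Nupr1, Il2ra and Bcl2 were highest in supplemented supernatant, whereas for Trib3 complete fresh medium was far below the other 3 media.

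Protein folding genes changed by small amounts, and their direction depended on scaling. Of 18 tested genes of the unfolded protein response, 12 were higher, 4 were lower and 2 were not called (median 0.23). With total-read scaling 9 were higher and 6 lower (median 0.089), and with FPKM 7 were higher and 1 lower. The chaperone gene Hsp90b1 averaged 30073 ± 873 reads in supplemented supernatant and 14768 ± 387 in methionine-free fresh medium (SD, n = 4 each; log2 fold change 1.03). Herpud1, a factor of protein degradation from the endoplasmic reticulum, had a log2 fold change of 0.85, and the co-chaperone gene Dnajb9 one of -1.39. The other 3 lower genes were Ern1 (-0.42), Edem1 (-0.24) and Pdia4 (-0.21).

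Antioxidant genes were higher by more. Of 24 tested NRF2 targets and genes of glutathione and transsulfuration, 19 were higher, 4 were lower and 1 was not called (median 0.95). Nqo1, a quinone reductase (chr8:107388225-107403206), had 241, 228, 235 and 190.5 reads in supplemented supernatant, against 17.9, 24.7, 23.7 and 22.4 in methionine-free fresh medium (log2 fold change 3.28, SE 0.15, adjusted p 2.05e-17). The 2 enzymes of transsulfuration went opposite ways. Cbs, cystathionine beta-synthase, which acts just before Cth in the pathway (chr17:31608894-31637238), had 17.3, 10.3, 21.5 and 20.8 reads in supplemented supernatant, against 64.5, 55.4, 63.7 and 77.5 in fresh- (log2 fold change -1.88, SE 0.22, adjusted p 1.76e-08), whereas Cth rose as described above. The other 3 lower genes were Gpx1 (-0.71), a glutathione peroxidase, Nfe2l2 (-0.48), which encodes NRF2, and Keap1 (-0.17), its inhibitor.

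Genes of cell division and nucleotide supply were mostly higher, by less than 2-fold for most. Of 20 tested genes of purine and pyrimidine synthesis, 17 were higher and 1, Umps, was lower (median 0.52). Impdh2, the rate-limiting enzyme of guanine nucleotide synthesis (chr9:108560286-108565584), had 19013, 18972, 19902 and 18312 reads in supplemented supernatant, against 4674, 4833, 4799.8 and 5075 in methionine-free fresh medium (log2 fold change 1.97, SE 0.032, adjusted p 6.15e-27). Mthfd1l, a mitochondrial folate enzyme, averaged 10912 ± 337 reads in Sup+ and 3503 ± 138 in fresh- (SD, n = 4 each; log2 fold change 1.64). Umps, which makes uridine monophosphate, averaged 3123 ± 84.4 reads in Sup+ and 6716 ± 188 in fresh- (-1.10). These 3 genes differed without overlap, and the direction of Umps was opposite to that of the other enzymes called.

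Of 27 tested DNA replication genes, 20 were higher, 5 were lower and 2 were not called (median 0.36). Pold1, the catalytic subunit of polymerase delta, averaged 10438 ± 441 reads in Sup+ and 4332 ± 56.7 in fresh- (SD, n = 4 each; log2 fold change 1.27), and Rfc4, a clamp loader subunit, had a log2 fold change of 1.26. Tyms, thymidylate synthase, was lower (-0.61), as were Fen1 (-0.55), Rrm2 (-0.31), Mcm10 (-0.20) and Cdc6 (-0.13). Of 28 tested mitosis genes, 24 were higher, 3 were lower and 1 was not called (median 0.37). The kinesin gene Kif2c (1.02) and the spindle checkpoint kinase gene Bub1 (1.01) rose most among them. Mki67, the gene of the proliferation marker Ki-67 (chr7:135689784-135716361), had 46209, 45389, 43572 and 49892 reads in supplemented supernatant, against 61395, 65312, 61693 and 58331 in methionine-free fresh medium (log2 fold change -0.42, SE 0.038, adjusted p 1.31e-10), and in the FPKM table its log2 fold change was as large, -0.45, without a call (adjusted p 0.066). Birc5 (-0.16) and Cenpf (-0.21) were the other 2 lower genes.

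Ribosome biogenesis genes changed in both directions. Of 32 tested, 9 were higher, 18 lower and 5 not called (median -0.13). The share of lower genes is not far from the 42.5% of all genes tested, and it varied with scaling, at 6 higher and 23 lower with total-read scaling (median -0.27) and 3 and 9 in the FPKM table. Rrs1, an assembly factor of the large subunit, had 1959.6, 1924, 2044 and 1975 reads in supplemented supernatant, against 4836, 4667, 4779 and 5072 in methionine-free fresh medium (log2 fold change -1.29, adjusted p 2.68e-22). Utp20, of the small subunit processome, had a log2 fold change of -1.29. Npm1, nucleophosmin, went the other way, at 85226 ± 4559.6 reads in Sup+ and 34628 ± 1810.2 in fresh- (SD, n = 4 each; log2 fold change 1.30).

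Cytokine genes, through which T cells act on other cells, changed in both directions. Of 18 tested cytokine genes, 10 were lower, 6 higher and 2 not called (median -0.32). Among all genes tested 42.5% were lower, so this share is not far from the background. Ifng, which encodes interferon gamma, a main antiviral and antitumour cytokine of CD8+ T cells (chr10:118441046-118445892), had 122, 128, 139.9 and 143 reads in supplemented supernatant, against 907, 911, 861 and 984 in methionine-free fresh medium (log2 fold change -2.77, SE 0.073, adjusted p 2.14e-22). Its libraries in supplemented supernatant were still above complete fresh medium, with a mean of 71.9 ± 9.15 reads (SD, n = 4), and far below unsupplemented supernatant, with 1548 ± 108. Tnf (chr17:35199381-35202007) had 2184, 1948, 2076 and 2216 reads in Sup+, against 2729.8, 2464, 2386 and 2637 in fresh- (log2 fold change -0.28, SE 0.044, adjusted p 2.28e-06), a call lost in the FPKM table (log2 fold change -0.17, adjusted p 0.271). Csf1, a macrophage growth factor, averaged 50.5 ± 3.55 reads in Sup+ and 301 ± 18.4 in fresh- (SD, n = 4 each; log2 fold change -2.55). Il4, the type 2 cytokine, was higher, with 28.9, 31.9, 33.3 and 26.8 reads in Sup+ against 6.27, 5.93, 4.55 and 3.06 in fresh- (log2 fold change 2.42, adjusted p 7.38e-08), both low.

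Genes of chemokines, which recruit other cells, were lower, and those of their receptors were mixed. Of 17 tested chemokine and homing receptor genes, 10 were lower and 5 higher (median -0.42), beside 42.5% lower and 42.3% higher among all genes tested. Beside Cxcl10, Ccl3, a ligand of inflammatory chemokine receptors (chr11:83647844-83649355), had 32.7, 13.4, 18.6 and 13.9 reads in supplemented supernatant, against 202, 214, 157 and 167 in methionine-free fresh medium (log2 fold change -3.25, SE 0.21, adjusted p 5.12e-14). The genes on the higher side all encode receptors, among them Ccr2 (0.74), Ccr7 (0.37) and Ccr8 (1.09), and the 5 called chemokine ligand genes, Ccl3, Ccl4 (-2.71), Ccl5 (-0.86), Xcl1 (-1.68) and Cxcl10, were all lower.

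Cytotoxic granule genes moved both ways, more of them up. Of 15 tested, 9 were higher, 5 were lower and 1 was not called (median 0.41), beside 42.3% higher and 42.5% lower among all genes tested. Gzmb, granzyme B, the main killing protease (chr14:56258838-56262260), had 167599, 162555, 177904 and 177560.4 reads in supplemented supernatant, against 103421, 100651, 100261 and 106583 in methionine-free fresh medium (log2 fold change 0.74, SE 0.037, adjusted p 3.13e-16). Gzma, granzyme A, averaged 4288 ± 258 reads in Sup+ and 985 ± 82.4 in fresh- (SD, n = 4 each; log2 fold change 2.12), and Gzmk, granzyme K, 110.3 ± 9.22 in Sup+ and 25.1 ± 4.11 in fresh- (2.10). Gzmc, a mouse granzyme of the same cluster as Gzmb, was lower at 354 ± 33.9 reads in Sup+ and 908 ± 36.6 in fresh- (-1.36). The granzymes of that cluster are close paralogs whose reads the counting may have split between them. The other lower genes were Gzmf (-1.32), Lamp1 (-0.17) and the protease inhibitor genes Serpinb9 (-1.23) and Serpinb6b (-0.66).

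Transcription factors linked to T cell receptor signalling, some of them induced within hours, were mostly lower. Of 23 tested, 19 were lower and 4 higher (median -0.55). Fosb, a subunit of the factor AP-1 (chr7:19302696-19310051), had 10.6, 5.14, 3.91 and 11.3 reads in supplemented supernatant, against 153, 145, 189 and 172 in methionine-free fresh medium (log2 fold change -4.35, SE 0.25, adjusted p 4.05e-15). Egr2, an early growth response factor linked to T cell anergy (chr10:67535475-67542188), had 47.1, 40.1, 68.5 and 49.3 reads in Sup+, against 372, 392, 334 and 389.5 in fresh- (log2 fold change -2.86, SE 0.13, adjusted p 2.13e-17). All 3 Nr4a genes were lower as well, with log2 fold changes of -1.68 for Nr4a1, -1.39 for Nr4a2 and -2.20 for Nr4a3. On the higher side, Irf8, an interferon regulatory factor with a role in effector CD8+ T cells, averaged 3956 ± 97.5 reads in Sup+ and 1065 ± 37.99 in fresh- (SD, n = 4 each; log2 fold change 1.89). The other 3 were Jund (0.41), Batf3 (0.16) and Nfkb1 (0.073).

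The genes listed for cyclic AMP and adenosine, signals that restrain T cells, were all lower. The list holds receptor genes as well, Adora2a (-0.69), Adora2b (-0.38), Ptger2 (-1.47) and Ptger4 (-0.92). It does not hold the adenosine receptor gene Adora3, which was higher and is given below. All 15 tested genes of this list fell (median log2 fold change -1.39), 9 of them by at least 2-fold, and all 15 fell as well with total-read, TMM and quantile scaling. On FPKM values, 12 of the 15 were called lower and 0 higher. Members were chosen with earlier results of these data known, so their shared direction is only a description. Whether cyclic AMP or adenosine signals differed was not tested. Rgs2, a regulator of G protein signalling (chr1:143999338-144004161), had 55.8, 68.9, 49.9 and 45.02 reads in supplemented supernatant, against 486, 493, 554 and 553 in methionine-free fresh medium (log2 fold change -3.24, SE 0.11, adjusted p 7.93e-20). Dusp4, a phosphatase that inactivates MAP kinases (chr8:34807297-34819894), had 842, 878, 848 and 908 reads in Sup+, against 6222, 6176, 6603 and 5969 in fresh- (log2 fold change -2.84, SE 0.038, adjusted p 1.73e-28). Complete fresh medium was below supplemented supernatant for Dusp4, with 542 ± 50.5 reads, and above it for Rgs2, with 99.2 ± 5.44 (SD, n = 4 each). The list shares Nr4a2 and Fosl2 with the one before.

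Receptor genes at the cell surface went both ways. Of 15 tested inhibitory receptor genes, 8 were higher and 6 lower. Among all genes tested 42.3% were higher and 42.5% lower, so these shares are not far from the background. Cd244, also called 2B4, averaged 351 ± 20.4 reads in Sup+ and 53.8 ± 7.604 in fresh- (SD, n = 4 each; log2 fold change 2.69), and Lair1, a collagen receptor, 535 ± 27.6 in Sup+ and 119 ± 9.44 in fresh- (2.17). Btla, the receptor of the herpesvirus entry mediator (chr16:45224315-45257670), had 382, 427, 429.6 and 428 reads in supplemented supernatant, against 2224, 2325, 2282 and 2221 in methionine-free fresh medium (log2 fold change -2.44, SE 0.048, adjusted p 4.98e-25). Of 16 tested costimulatory receptor genes, 7 were higher and 7 lower, near the same background. Cd27 (1.43), of the TNF receptor family, and Cd6 (0.67) were higher and Slamf1 (-1.27) lower.

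Of 18 tested members of the T cell receptor machinery, the receptor and its proximal signalling, 15 were higher and 2 lower (median 0.29), though with quantile normalization 10 were higher and 7 lower, and with FPKM 8 and 1. Cd3g, a chain of the CD3 complex (chr9:44969572-44980431), had 14720.0, 15207, 15512 and 14127 reads in supplemented supernatant, against 4925, 4841, 4902 and 5056 in methionine-free fresh medium (log2 fold change 1.59, SE 0.031, adjusted p 3.96e-25). Lck, the kinase that starts signalling, averaged 26695 ± 784 reads in Sup+ and 11335 ± 136 in fresh- (SD, n = 4 each; log2 fold change 1.24). Sit1 (-0.69), an adaptor that dampens signalling, and Lcp2 (-0.23), the adaptor SLP-76, were the 2 lower genes.

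Genes of the interleukin 2 pathway and related cytokine signals moved in both directions. Of 27 tested genes of cytokine receptors, STAT factors and SOCS inhibitors, 14 were higher and 11 lower. Among all genes tested 42.3% were higher and 42.5% lower, so these shares are not far from the background. With total-read scaling 11 were higher and 13 lower, and with quantile normalization 12 and 12. Il2ra, the high-affinity chain of the interleukin 2 receptor (chr2:11642807-11693193), had 80637, 80661, 80188 and 82765 reads in supplemented supernatant, against 34105, 33596, 33082 and 33189 in methionine-free fresh medium (log2 fold change 1.28, SE 0.029, adjusted p 1.16e-23). Pim2, a survival kinase gene, averaged 15079.9 ± 734 reads in Sup+ and 6653 ± 253 in fresh- (SD, n = 4 each; log2 fold change 1.18). Il21r, the interleukin 21 receptor, averaged 8247 ± 155 in Sup+ and 17949 ± 102 in fresh- (-1.12). The feedback inhibitor genes Cish (-1.10), Socs1 (-1.06), Socs3 (-0.66) and Socs2 (-0.36) were all lower.

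Stat5b and its neighbour Stat5a, which transmit the interleukin 2 signal, differed in outcome. Stat5b had 6149, 5955, 6246 and 5963 reads in supplemented supernatant, against 3792, 3921, 3974 and 3786 in methionine-free fresh medium (log2 fold change 0.65, adjusted p 7.84e-17). Stat5a had 2949, 2960.5, 2914 and 2888 reads in Sup+, against 2857, 2891, 2874 and 2789 in fresh-, and was not called (log2 fold change 0.038, adjusted p 0.275; 95% interval of the log2 difference from -0.028 to 0.10), and its sign turned with total-read scaling (-0.11, adjusted p 0.00312), whereas in the FPKM table with a replicate block it was called higher (0.15, adjusted p 0.0405). The 2 genes lie side by side on chromosome 11 and are paralogs, so reads may be shared between them.

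Interferon-induced genes were mostly lower. Of 30 tested, 20 were lower, 8 higher and 2 not called (median -0.40). Mx1, an antiviral GTPase (chr16:97447035-97462907), had 261, 273, 264 and 278 reads in supplemented supernatant, against 1677, 1621, 1546 and 1649 in methionine-free fresh medium (log2 fold change -2.59, SE 0.053, adjusted p 9.02e-25). Its paralog Mx2 had 6.73, 3.09, 0.979 and 1.73 reads in Sup+, against 58.2, 82.1, 66.4 and 86.7 in fresh- (log2 fold change -4.34, SE 0.35, adjusted p 6.05e-12). Psmb9, a subunit of the immunoproteasome, was higher at 8013 ± 463 reads in Sup+ and 3639 ± 87.8 in fresh- (SD, n = 4 each; log2 fold change 1.14).

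The BCL2 family, which governs survival and apoptosis at the mitochondrion, moved in both directions on both of its sides. Of 15 tested genes, 5 were higher and 8 lower, beside 42.3% higher and 42.5% lower among all genes tested. Among protective members, Bcl2 (chr1:106538178-106714274) had 30706, 30712, 28859 and 31843 reads in supplemented supernatant, against 17118, 17542, 17103 and 16966 in methionine-free fresh medium (log2 fold change 0.83, SE 0.031, adjusted p 3.50e-19), and Mcl1 (chr3:95658788-95663176) had 6838, 6786, 6824 and 7186 reads in Sup+, against 17342, 17246, 18037 and 18136 in fresh- (log2 fold change -1.36, SE 0.030, adjusted p 3.85e-24). Among death-promoting members, Pmaip1, which encodes NOXA, averaged 908 ± 75.9 reads in Sup+ and 2571 ± 93.3 in fresh- (SD, n = 4 each; log2 fold change -1.50), and Bid 2207 ± 92.9 in Sup+ and 863 ± 50.1 in fresh- (1.35). The other 3 higher genes, Bmf (1.004), Bad (0.84) and Bik (0.58), are death-promoting too. So are the lower genes Bbc3 (-1.35), Bax (-1.12), Bcl2l11 (-1.08) and Bak1 (-0.19). The remaining lower genes, Bcl2l1 (-0.78) and Bcl2a1b (-0.33), are protective.

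Differentiation and lysosome lists had medians near 0. Their counts stand beside 42.3% higher and 42.5% lower among all genes tested. Of 18 tested genes of naive and memory T cells, 8 were higher and 9 lower, among them Id3 (0.92), higher, and the repressor genes Klf3 (-1.06) and Zeb1 (-0.66), lower. Of 15 tested effector transcription factors, 6 were higher and 6 lower, with Id2 (1.14) and Ikzf3 (0.59) on the higher side and Maf (-1.60) on the lower. Of 24 tested genes of autophagy and the lysosome, 9 were higher and 13 lower. The cathepsin gene Ctsz (-0.77) and the autophagosome gene Map1lc3b (-0.72) were lower, and Wipi1, which binds the membrane of the growing autophagosome, was higher with 107, 119, 109.6 and 104 reads in Sup+ against 15.2, 15.8, 20.9 and 12.2 in fresh- (log2 fold change 2.72, adjusted p 2.21e-13).

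The change of each gene was divided into 2 parts in a model of all 16 libraries. The methionine part is the mean difference of supplemented supernatant and complete fresh medium over the 2 media to which no methionine was added. The medium part is the mean difference between supernatant and fresh medium, over both levels of methionine supply. How much methionine unsupplemented supernatant still held is not stated, so the methionine part need not compare presence with absence. The 2 parts add up to the change. Where the effect of one depends on the other, each part is an average of unlike differences. The median absolute methionine part was 0.51 on the log2 scale and the median absolute medium part 0.13. The methionine part passed an adjusted p of 0.05 in 11006 genes (88.4%) and the medium part in 7289 (58.5%). The medium part was larger in size in 2094 genes (16.8%). In the FPKM table the medium part was called in 1179 of 11617 genes, and in 4809 with a block for the replicate number.

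In the lists, the medium part was most one-sided for the amino acid response, ribosome biogenesis, mitosis and DNA replication, by the share of members called one way. The background is 3725 genes (29.9%) with a higher and 3564 (28.6%) with a lower medium part. For the ATF4 list it was higher in 29 of 30 genes, with a median of 0.53. For ribosome biogenesis it was higher in 30 of 32 (median 0.37). For mitosis it was lower in 28 of 28 (median -0.32), and for DNA replication in 26 of 27 (median -0.22). In the mitosis list the methionine part ran the other way, with a median of 0.70, and the changes listed above for cell division genes are the sums of these opposite parts.

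In 1271 genes (10.2% of genes tested) the comparison and the medium part were both called and the medium part was the larger in size. As an average, a large medium part can come from 1 of the 4 media alone. The levels in the other 2 media are therefore given for the 6 highest genes and for P2rx7. For the other genes with lower medium parts they are not given, so this cannot be read for them. Aldh1l2, a mitochondrial folate dehydrogenase (chr10:83487450-83534140), had 2094, 1903, 1941 and 2114 reads in supplemented supernatant, against 132, 162, 140.1 and 106 in methionine-free fresh medium (log2 fold change 3.90, SE 0.085, adjusted p 3.24e-24). It was low in the other 2 media too, at 204 ± 19.3 reads in unsupplemented supernatant and 159.8 ± 11.4 in complete fresh medium (SD, n = 4 each), so of the 4 media the one with both supernatant and added methionine was high. Nupr1, a small stress-induced chromatin protein gene (chr7:126623249-126630861), had 1073, 1024, 1069 and 1033 reads in Sup+, against 553, 592, 515 and 579 in fresh- (log2 fold change 0.91, SE 0.053, adjusted p 7.25e-15), with a medium part of 1.72 and a methionine part of -0.82. Unsupplemented supernatant averaged 534 ± 35.9 Nupr1 reads and complete fresh medium 91.1 ± 7.404 (SD, n = 4 each). The 2 media with no methionine added thus lay within 1 SD of each other, and complete fresh medium was low. Cox6a2, the muscle isoform of a cytochrome oxidase subunit (chr7:128205435-128206387), had 442, 418, 436 and 355 reads in Sup+, against 90.4, 148, 141 and 132 in fresh- (log2 fold change 1.70, SE 0.12, adjusted p 2.30e-13). Unsupplemented supernatant, at 128 ± 23.5 Cox6a2 reads, was within 1 SD of methionine-free fresh medium, and complete fresh medium held few, 7.65 ± 3.76 (SD, n = 4 each). Adora3, an adenosine receptor gene, averaged 453 ± 9.81 reads in Sup+ and 114 ± 24.6 in fresh- (SD, n = 4 each; medium part 1.70), with 224 ± 26.1 in unsupplemented supernatant and 84.6 ± 11.7 in complete fresh medium. Angptl6, a secreted angiopoietin-like factor (log2 fold change 0.54, medium part 1.84), and Avil, an actin-binding protein gene (0.48 and 1.65), completed the 6 highest. Angptl6 averaged 1834 ± 123 reads in Sup+, 1362 ± 37.3 in unsupplemented supernatant, 153 ± 6.89 in complete fresh medium and 1259 ± 61.2 in fresh-, and Avil 209.5 ± 28.7, 166 ± 17.4, 23.2 ± 5.23 and 151 ± 24.8 in those media (SD, n = 4 each), so complete fresh medium was the low one for both. In the FPKM table Avil had a similar log2 fold change, 0.50, but was not called (adjusted p 0.14).

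On the lower side, P2rx7, the receptor through which extracellular ATP acts on T cells (chr5:122643911-122691432), had 291, 313, 287 and 313 reads in supplemented supernatant, against 953, 989, 961 and 918 in methionine-free fresh medium (log2 fold change -1.66, SE 0.058, adjusted p 9.45e-20; medium part -1.18). Unsupplemented supernatant lay between them at 662 ± 26.7 reads and complete fresh medium above them at 1068 ± 37.3 (SD, n = 4 each). Tet1, which oxidizes methylated cytosine (chr10:62804570-62908996), had 371, 361, 354 and 376 reads in Sup+, against 936, 863, 796 and 811 in fresh- (log2 fold change -1.22, SE 0.060, adjusted p 2.25e-16). Tbc1d4, a regulator of glucose transporter traffic, averaged 229.5 ± 25.1 reads in Sup+ and 682 ± 25.3 in fresh- (SD, n = 4 each; log2 fold change -1.57, medium part -0.80). Tlr12, a Toll-like receptor, had a log2 fold change of -1.11 and a medium part of -1.02, and the tubulin gene Tubb6 -0.71 and -0.78. Dyrk1b, a kinase gene, was called at -0.34 (adjusted p 0.0111) with overlapping groups, but not without replicate 3 of supplemented supernatant (-0.23, adjusted p 0.0716), without replicate 0 of methionine-free fresh medium (-0.22, adjusted p 0.0908), and neither with FPKM (-0.062, adjusted p 0.895).

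**Figure D4:**
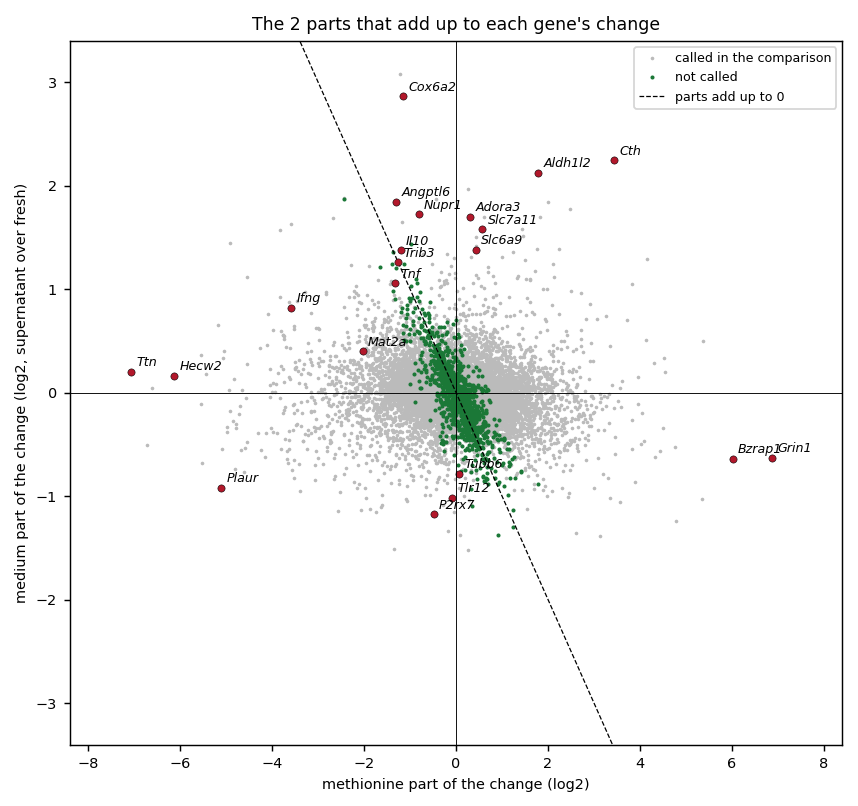
Methionine part (horizontal, log2) against medium part (vertical, log2) of each of the 12452 tested genes, with genes that were not called in green, named genes in red and a dashed line where the parts add up to 0. Most genes spread along the horizontal axis. Cth and Aldh1l2 lie high in both parts, and Trib3 lies near the dashed line.

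Some genes without a call had called parts of opposite sign. Of 1889 genes (15.2%) not called in the comparison, 1078 (8.66% of genes tested) had a called methionine part and 753 (6.05%) had both parts called. Trib3, described above, is one of them, with a medium part of 1.26 and a methionine part of -1.25, and of its 4 media complete fresh medium alone was low. Il10, an anti-inflammatory cytokine gene (chr1:131019845-131024974), had 176, 190.3, 203 and 193 reads in supplemented supernatant, against 191, 150.3, 152 and 186 in methionine-free fresh medium (log2 fold change 0.17, adjusted p 0.11; medium part 1.38, methionine part -1.20). It averaged 406 ± 36.2 reads in unsupplemented supernatant and 67.2 ± 9.53 in complete fresh medium (SD, n = 4 each), so the 2 compared media are the middle ones of the 4. Cdk6, a kinase of the G1 phase, had a medium part of 0.72, a methionine part of -0.81 and a log2 fold change of -0.093. Pmepa1, a TGF-beta-induced gene, and Cela1, an elastase gene, had log2 fold changes of 0.057 and -0.24 with methionine parts of -0.97 and -0.93. Tctn1, a gene of the primary cilium, was the one of the 6 with the opposite signs, with a medium part of -0.64 and a methionine part of 0.82. Of these 6 genes, Trib3, Il10, Cdk6, Cela1 and Tctn1 were called under some alternatives. Cela1 was called lower under 7 of them, of which 2 are the same limma fit without replicate 1 of methionine-free fresh medium (-0.29, adjusted p 0.0329). Among the others were total-read scaling (log2 fold change -0.38, adjusted p 0.00309), quantile normalization (-0.26, adjusted p 0.0315) and edgeR (-0.30, adjusted p 0.0255). Cdk6 was called lower under 4, with log2 fold changes from -0.24 with total-read scaling to -0.12, and Tctn1 higher under 3 (0.20 to 0.24). Il10 was called higher without replicate 0 of methionine-free fresh medium (0.23, adjusted p 0.0489). A missed threshold does not show that the levels of these genes were equal.

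Marker genes of other cells differed between the conditions too. Summed CD4 T cell markers were 11138 to 13455 reads in supplemented supernatant, against 20371 to 22633 in methionine-free fresh medium, with 1 of 7 tested markers higher and 5 lower. Ctla4 (-1.06) and Cd40lg (-0.86) fell most, whereas Cd4 itself (-0.24), Zbtb7b (-0.20) and Foxp3 (-0.33) fell less. Il4 (2.42) was the higher one. B cell markers summed to 373 to 395 reads in Sup+, against 793 to 974 in fresh-, and the 3 tested ones were all lower, while Ms4a1 and Pax5, which define B cells, averaged 2.15 and 1.21 reads in Sup+ and 5.85 and 0.906 in fresh-. Natural killer cell markers summed to 3307 to 3422 reads in Sup+, against 2545 to 2707 in fresh-, with 4 of 7 tested higher and 2 lower. Klrb1c (3.35), Fcer1g (1.02), Tyrobp (0.85) and Eomes (0.77) were higher, and Klre1 (-0.91) and Klri2 (-0.96) lower. The receptor gene Ncr1 (0.16) was not called. Myeloid markers summed to 272 to 334 reads in Sup+, against 237 to 299.9 in fresh-, with 2 of 6 tested higher, 4 lower and Csf1r at a mean of 3.65 in Sup+ and 2.88 in fresh-. Melanoma markers summed to 252 to 300.4 reads in Sup+, against 350.3 to 385 in fresh-. Of 4 tested melanoma markers 2 were higher and 1 lower. The pigment genes Tyrp1, Dct and Mlana averaged 0.514, 0.955 and 0 reads in Sup+ and 0, 0.749 and 5.31 in fresh-, and Pmel averaged 27.9 ± 5.16 in Sup+ and 176 ± 5.38 in fresh-. The part of these markers in the results above was not tested.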

How the data were processed

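RNA-seq of 16 libraries was analysed, 4 for each of the 4 media, and 8 entered the comparison. The authors deposited a depth-normalized signal (17159 genes) and FPKM (23107 genes) for each library. The submitters' processing notes name FastQC 0.11.3, TopHat2 2.0.13, Bowtie2 2.2.1, Cufflinks, Cuffdiff 2.2.1, mm10 and GRCm38, with no role or order. The counting tool and strand are not given in the sources used here, so overlapping, antisense and paralogous genes may share reads.

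From the deposited signal, log2(value + 1) of genes averaging 10 or more in the 8 libraries was fitted in R 4.3.3 by limma 3.58.1, with its trend option. This scale understates folds of genes near 0 reads. Tests were two-sided, with Benjamini-Hochberg adjustment over all 12452 genes tested and a threshold of 0.05. The 2 parts of each change came from 1 limma model of 16 libraries. Whole reads per gene were recovered from 15 of the 16 columns, so edgeR 4.0.16 and DESeq2 1.42.0 ran on 7 of the 8 libraries. Between libraries of the same group, the mean chi-square per gene was 2.65 to 9.43, above counting error, so no library was counted as a copy. Other alternatives were the pseudocount, the filter, total-read, TMM and quantile scaling, FPKM (log2 of value + 0.1, mean of at least 0.5), all 16 libraries, a replicate block and leaving out each library.

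The named genes are the 8 highest and 8 lowest (called, mean of at least 100, no overlap), up to 3 per list, the 6 highest and 6 lowest medium parts, 6 genes not called with large methionine parts, and 12 fixed genes. Members and lists were chosen with earlier results of these data known. Other list members named above were chosen after their values were seen. Some genes that the rule picks are not reported here by name and stand within counts only. Positions are from GENCODE M21.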

Additional observations from a re-analysis of the deposited data

Results flagged for a closer look

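Of 246 groups of 4 libraries checked over the named genes, 6 held a library whose distance from the nearest other exceeded Dixon's 95% limit relative to the group's range, and chance alone would give about 1 in 20 groups. In supplemented supernatant, the cystine exchanger gene Slc7a11 had 590.7 reads in replicate 0, against 681 to 698 in the other 3 libraries. The receptor gene Btla had 381.9 reads in replicate 0, against 427 to 429.6. Tyms had 2186 reads in replicate 2, above the others at 1939 to 1978. The asparagine synthetase gene Asns had 17856 reads in replicate 2, above 16911 to 17050.0 in the others. Mcl1 had 7186 reads in replicate 3, above 6786 to 6838. In methionine-free fresh medium, Zeb1 had 3649 reads in replicate 3, below 3908 to 3962 in the others. All 6 genes kept their direction and their call when each library was left out in turn.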

How the results depend on the processing

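The count of called genes, 10563, was between 10199 and 10587 under the other scalings of the depth-normalized table (total-read, TMM, quantile), the other pseudocounts, edgeR, DESeq2, the replicate block and the fit of all 16 libraries. Changing the filter changed the genes tested as well, to 11549 called of 16918 with no filter and 9508 of 10823 with a mean of at least 50. Leaving out 1 library at a time gave 10322 to 10476. For at least 2-fold calls that range was 2870 to 2921, for the medium part 7023 to 7207, and for the methionine part 10916 to 10987. In the FPKM table the comparison called 6214 genes without and 9138 with a replicate block, and the medium part 1179 and 4809. Whether replicate numbers pair the libraries differed between the tables. In depth-normalized values, same-numbered libraries had residual correlations between -0.053 and 0.026, and 2 of 8 were closest to their own number. In FPKM the correlations were 0.093 to 0.271, with 6 of 8 closest, a hint of pairing that the labels do not state. With the replicate block on depth-normalized values, calls numbered 10530, 7258 for the medium part and 11001 for the methionine part.

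List medians near 0 changed sign. The costimulatory receptors (0.01) came to -0.13 with total-read scaling, -0.075 with quantile normalization, -0.0052 in edgeR and -0.00068 in DESeq2. Naive and memory genes came to 0.019 in FPKM with and without the block, and effector factors to 0.056 in both and to 0.021 without replicate 0 of methionine-free fresh medium. Cytokine receptors and STAT factors came to -0.043 with total-read scaling. Of 660 list medians under alternatives, these 10 changed sign. Another 84 moved by more than a limit set from the median standard error of the members' log2 fold changes, and 566 by less. Trib3 (-0.14 with total-read scaling, -0.18 with quantile normalization), Stat5a (-0.11) and Dot1l (-0.12, both total-read) turned negative, and all 3 were called higher in FPKM with the block (0.22, 0.15 and 0.22). The cause of these shifts was not tested. With Tnf, the call was also lost in FPKM with the block (adjusted p 0.054). Genes near 0 reads are limited by depth.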

Other observations

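Supplemented supernatant stood apart from all 3 other media at once in several lists, against 10.9% of all genes tested on the higher side and 8.5% on the lower. In the ATF4 list, supplemented supernatant was the top medium for 17 of 30 tested genes, among them Chac1, a glutathione-degrading enzyme, with means of 1198 reads there, 472 in unsupplemented supernatant, 293 in complete fresh medium and 399.6 in methionine-free fresh medium. It was the top medium for 9 of 20 nucleotide synthesis genes, 9 of 24 NRF2 and glutathione genes, 8 of 15 amino acid transporters and 0 of 24 sterol genes. It was the lowest medium for 10 of 15 genes listed for cyclic AMP and adenosine and for 7 of 23 factors linked to T cell receptor signalling. For Pycr1, of proline synthesis, the means were 1458, 669, 477 and 489.8 reads in the same order of media, and for Crem, a cyclic AMP-responsive factor, 1218, 6742, 1544 and 6322. These counts are descriptions without a test, and the genes named here were chosen after their values were seen.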
